A study of Mus musculus with 10 samples.

Results

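Intraepithelial lymphocytes (IELs) are T cells that lie between the epithelial cells of the gut, and the epithelium displays or secretes molecules that they recognise or need. The 9 genes described here were grouped as such ligands: the butyrophilin-like genes Btnl1, Btnl2, Btnl4, Btnl6 and Btnl9, the C-type lectin Clec2h, the class I-like molecules H2-T3 and Cd1d1, and the cytokine Il15. The grouping does not show that each of these genes acts on IELs. The 9 were taken by gene symbol from the platform annotation, beside 22180 genes with a probe set of their own on 10 arrays. Of the 9 genes, 6 had such a probe set, 1 each. The other 3 were annotated only on probe sets that carry another gene as well. Btnl4 and Btnl6 share 1 probe set (17343834), and H2-T3 shares 1 (17344608) with H2-T18, so the level of none of these 3 can be read alone.

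Affymetrix MoGene 2.0 ST arrays were hybridised with RNA from mouse intestinal cells sorted by flow cytometry. The Flattop group (n = 4) held crypt cells labelled as expressing Flattop, from mice of genotype FltpT2AiCre crossed with Gt(ROSA)26mTmG on a mixed background of C57BL/6J, CD1 and 129/SvJ. In this cross a Cre recombinase expressed with Flattop switches on a membrane-bound reporter colour, which descendants of a recombined cell keep. The Lgr5-high group (n = 6) held stem cells sorted for high Lgr5 and GFP, from C57BL/6J mice carrying Lgr5-EGFP-IRES-creERT2, an insertion at the gene of the crypt base stem cell receptor. All mice were 3 to 6 months old. Group, genotype and strain coincide and cannot be told apart, and the labels do not state separate animals for the replicates, so each p-value reflects variation among these samples, technical variation included. The comparison asks how Flattop-expressing crypt cells differ from Lgr5-high stem cells.

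Butyrophilin-like proteins are relatives of the B7 costimulatory molecules. In the mouse small intestine Btnl1 acts together with Btnl6 or Btnl4 on the surface of villus enterocytes to select and maintain gamma-delta IELs, and these genes are switched on as enterocytes differentiate. Interleukin 15 made by epithelial cells is handed to IELs on the receptor chain Il15ra and keeps them alive. H2-T3, the thymus leukaemia antigen, binds the CD8 alpha homodimer found on many IELs, Cd1d1 shows lipids to natural killer T cells, and Clec2h encodes Clr-f, a gut epithelial ligand of the receptor NKR-P1G.

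Values are log2 intensities after robust multi-array averaging, so a difference of 1 is a doubling of signal. They range from 2.01 to 14.1, with a median of 4.70 over all values, and no detection calls were used here. The labels were checked on their own genes. Lgr5 averaged 8.37 ± 1.42 (SD, n = 4) for Flattop and 9.47 ± 0.33 (SD, n = 6) for Lgr5-high, and Cfap126, which encodes Flattop, at 5.42 ± 0.74 and 4.996 ± 0.349. Neither difference passed limma (adjusted p = 0.533 and 0.678). The Lgr5-high mice carry an insertion at Lgr5 itself, so Lgr5 is not a plain check of that label. The effect of the insertion on this signal was not tested. The Lgr5 difference of -1.10 was uneven, at -0.16 within sample title numbers 1 to 8 and -2.04 within 38 to 46, and at -0.45 without Flattop replicate 3. Epithelial identity was present on every array: the mean of 6 pan-epithelial markers lay between 9.94 and 10.68, and the adhesion molecule Epcam was at 10.84 ± 0.06 (SD, n = 4) and 10.83 ± 0.12 (SD, n = 6). Of these 6 markers 0 passed limma, and 4 had a positive difference (median 0.17, against -0.06 for all genes). Vil1 was at 10.21 ± 0.14 (SD, n = 4) and 9.59 ± 0.21 (SD, n = 6), without overlap (difference 0.62, limma adjusted p = 0.0782). IEL markers differed widely, with a mean of 12 genes between 8.38 and 10.95 in Flattop and between 4.44 and 4.91 in Lgr5-high arrays. The pools therefore also differed in lymphocyte RNA. In such bulk samples, fewer cells of a type and less RNA per cell cannot be told apart.

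Clec2h was the member that rose. Its level was 10.002, 10.06, 9.14 and 10.49 in Flattop replicates 1 to 4. In the Lgr5-high arrays it ran from 4.45 to 5.41, with a median of 4.96. All Flattop arrays lay far above all Lgr5-high arrays, and the gap between the groups was larger than the whole spread within either. The means were 9.92 ± 0.56 (SD, n = 4) and 4.93 ± 0.36 (SD, n = 6), a difference of 4.99 (SE 0.27, 95% interval 4.40 to 5.57, limma adjusted p = 1.13e-05), or 31.7-fold. Among the 22180 genes it had the third smallest p-value and ranked 14 by size of rise. The Lgr5-high level lay close to the median of all values, where array signal compresses differences, so the size is uncertain. Clec2h was also higher within each range of sample title numbers, a possible batch whose meaning the labels do not give: by 5.39 within titles 1 to 8 and by 4.59 within titles 38 to 46, each with 2 Flattop and 3 Lgr5-high arrays. The interaction of group and range was -0.80 (SE 0.49, limma adjusted p = 0.723), a test that 0.00902% of all genes passed, so a difference in size between the ranges is not settled.

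The stretch around the annotated start of Clec2h is shown because this gene carries the change. It covers 250 bases before to 50 bases after the start in RefSeq (GRCm38.p6, chr6:128662135-128662434, plus strand), and capitals mark a match to the CDX2 motif.
Clec2h: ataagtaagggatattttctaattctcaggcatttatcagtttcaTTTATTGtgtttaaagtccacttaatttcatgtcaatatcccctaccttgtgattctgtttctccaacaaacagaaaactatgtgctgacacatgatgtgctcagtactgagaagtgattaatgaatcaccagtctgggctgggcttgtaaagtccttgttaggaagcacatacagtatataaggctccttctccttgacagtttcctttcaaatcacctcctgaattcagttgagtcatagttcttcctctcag
The motif searched was TTTATNG on either strand, which 10.9% of 32851 RefSeq promoters of the same length hold. The match starts 205 bases before the annotated start. A match of letters describes the sequence and is not a measured binding site. Sequences of 7 of the 9 genes were in the table used. None was available there for Il15 or Cd1d1.

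**Figure D1:**
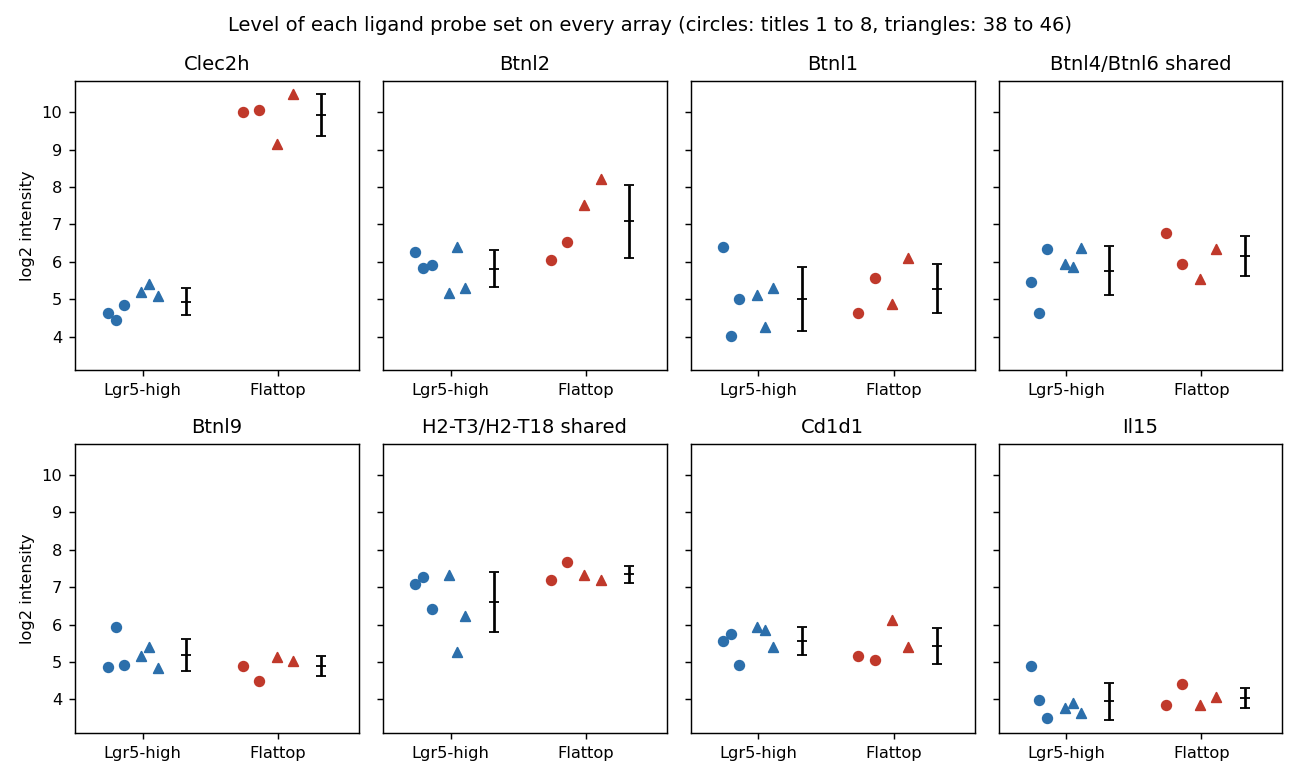
Log2 intensity (y axis) of the 8 probe sets that measure the 9 ligands, on each of 6 Lgr5-high (blue) and 4 Flattop (red) arrays. Circles are arrays with title numbers 1 to 8 and triangles those with 38 to 46, and black bars give the group mean and SD. Clec2h separates the groups completely, Btnl2 is high on the Flattop triangles at 7.52 and 8.22, and the remaining probe sets overlap. Levels of different probe sets are not comparable with each other.

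Clec2h was set beside marker genes on the same Flattop arrays. Its order over replicates was 4, 2, 1 and 3 from highest to lowest. The mean of 16 villus enterocyte markers had the same order, at 9.67, 9.02, 8.71 and 8.48 in replicates 4, 2, 1 and 3. The IEL marker mean had a different one, at 10.95 in replicate 3, 10.07 in replicate 4, 8.96 in replicate 2 and 8.38 in replicate 1. So the Flattop array with the most IEL signal had the least Clec2h. This was not particular to Clec2h and the enterocyte list. Replicate 3 also had the lowest pan-epithelial mean of the Flattop arrays, at 10 against 10.48 to 10.68. Its crypt base stem cell mean was the lowest of them too, at 7.87. Over 4 arrays an order shows little. Of the 12 IEL markers, 11 rose and 0 fell, and of the 16 enterocyte markers 6 rose and 0 fell, against 0.902% of all genes that rose and 0.0135% that fell. The part of either list in the Clec2h difference was not tested.

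By profile over the 10 arrays, the genes most like Clec2h were the mast cell protease Mcpt1, sucrase-isomaltase (Sis) and intestinal alkaline phosphatase (Alpi). After each gene was centred on its mean, they departed from Clec2h by a root mean square of 0.435, 0.503 and 0.534 log2 units per array, the smallest among 19389 genes considered. Sis and Alpi are digestive enzymes of the enterocyte brush border and were in the enterocyte list. Sis was at 10.27 in Flattop and 5.55 in Lgr5-high arrays on average, Alpi at 9.91 and 5.22, and Mcpt1 at 8.38 and 3.31. Since all 4 genes differ strongly between the groups, this likeness rests mainly on that difference.

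**Figure D2:**
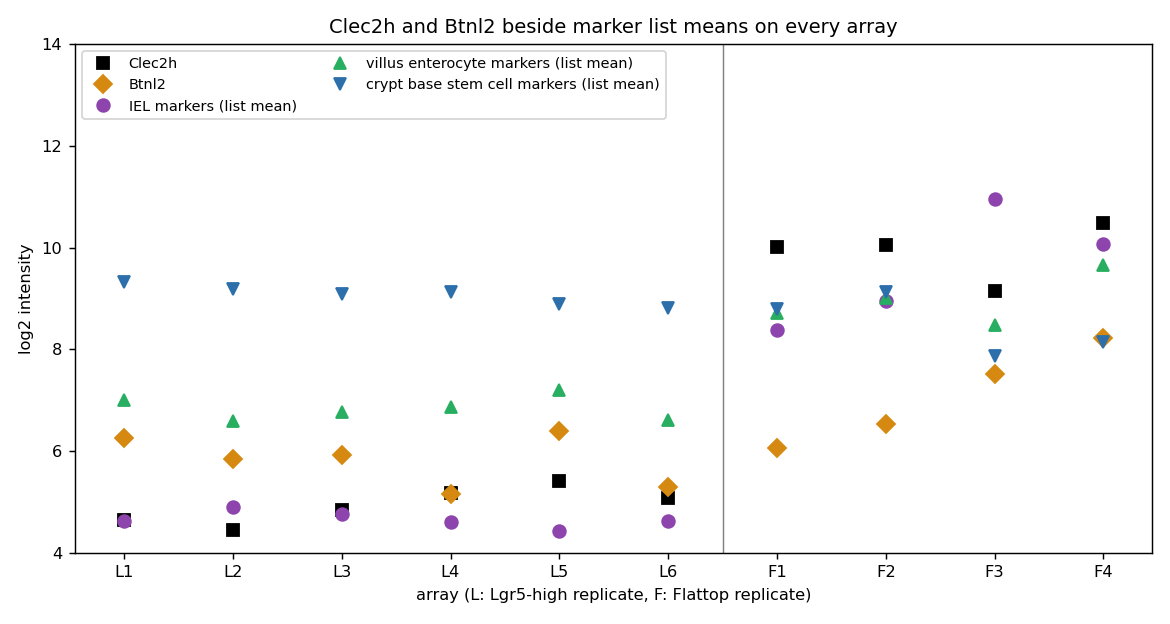
Log2 intensity (y axis) on each array (x axis, Lgr5-high replicates L1 to L6 and Flattop replicates F1 to F4) of Clec2h and Btnl2, beside the mean of IEL, villus enterocyte and crypt base stem cell markers. Clec2h and the enterocyte and crypt base stem cell means are lowest among Flattop arrays in F3. The IEL mean is highest there, at 10.95, and Btnl2 is highest in F4.

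Among the measured relatives of Clec2h and receptors of its receptor family, none passed the threshold. Of 5 other Clec2 genes with a probe set, 0 rose and 0 fell in limma (median difference 0.31, against -0.06 for all genes). At an unadjusted limma p under 0.05, 1 was higher, where 5.98% of all genes were. That gene was Clec2e, at 5.93 ± 0.75 (SD, n = 4) against 4.83 ± 0.23 (SD, n = 6), a difference of 1.10 (SE 0.29, adjusted p = 0.161). Clec2d, whose product Clr-b is widely expressed, was at 9.27 ± 0.86 and 8.97 ± 0.89. The next gene beside Clec2h in the reference order is Klrb1, which encodes NKR-P1G. It averaged 5.79 ± 0.73 (SD, n = 4) for Flattop and 5.02 ± 0.25 (SD, n = 6) for Lgr5-high, and the difference of 0.77 (SE 0.29) did not pass limma (adjusted p = 0.393). Klrb1b, Klrb1c and Klrb1f, receptors of the same family, differed by -0.31, -0.18 and -0.02, and none passed. Clec2e, Clec2d and Klrb1 were chosen for naming after their values were seen. Genes of the Clec2 family resemble each other, so which copy a probe set detects is uncertain to that extent.

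Btnl1, the partner that Btnl6 and Btnl4 need at the cell surface, did not separate the groups. It read 4.62, 5.555, 4.88 and 6.09 in Flattop replicates 1 to 4, and ran from 4.005 to 6.39 with a median of 5.05 in Lgr5-high arrays. Every Flattop value fell inside the Lgr5-high range. The difference was 0.28 (SE 0.45, 95% interval -0.71 to 1.26, limma adjusted p = 0.856). That interval reaches 2.40-fold upward and 0.611-fold downward, so these arrays do not settle whether there was a moderate change in either direction. Btnl1 averaged 5.12 over the 10 arrays, also near the median of all values (4.70), where array signal compresses differences.

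The probe set shared by Btnl4 and Btnl6 read 6.77, 5.94, 5.55 and 6.36 in Flattop replicates 1 to 4. It ran from 4.63 to 6.37, with a median of 5.90, in Lgr5-high arrays. One Flattop array lay above all Lgr5-high arrays and the rest overlapped. The difference of 0.39 (SE 0.36, 95% interval -0.42 to 1.19) did not pass limma over all 41345 probe sets (adjusted p = 0.775), where 0.404% of probe sets passed. Titles 1 to 8 gave 0.88 and titles 38 to 46 gave -0.11.

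The 2 genes are shown together because 1 probe set serves both. In the sequences around their annotated starts (GRCm38.p6, minus strand, chr17:34475888-34476187 for Btnl4 and chr17:34517303-34517602 for Btnl6), capitals mark the bases that differ between the pair in a global alignment.
Btnl4: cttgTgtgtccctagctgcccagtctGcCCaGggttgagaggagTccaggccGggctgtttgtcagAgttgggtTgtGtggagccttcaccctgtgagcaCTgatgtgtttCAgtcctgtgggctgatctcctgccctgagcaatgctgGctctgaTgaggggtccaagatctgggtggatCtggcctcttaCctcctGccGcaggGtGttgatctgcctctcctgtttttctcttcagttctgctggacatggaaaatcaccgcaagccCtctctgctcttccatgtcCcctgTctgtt
Btnl6: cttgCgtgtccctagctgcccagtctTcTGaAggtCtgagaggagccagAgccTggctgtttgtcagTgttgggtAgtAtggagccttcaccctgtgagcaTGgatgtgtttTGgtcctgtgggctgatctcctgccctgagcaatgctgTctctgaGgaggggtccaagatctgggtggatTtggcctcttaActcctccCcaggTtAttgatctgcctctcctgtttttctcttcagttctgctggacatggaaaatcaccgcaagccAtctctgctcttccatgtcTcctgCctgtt
They were identical at 275 of 302 aligned positions (91.1%), with 23 substitutions and 4 gap columns. The other 20 pairs among the 7 member promoters reached 47.6% to 53.4%, with 78 to 134 gap columns. No level for unrelated sequences was computed, so those lower percentages do not show relatedness. The starts used for Btnl4 and Btnl6 lie 1491 and 1424 bases inside the outermost ends of these genes, so transcripts can also begin elsewhere. Between them in the reference order lies Btnl5-ps, a transcribed pseudogene of the same family. It was at 7.16 ± 0.79 (SD, n = 4) against 6.15 ± 0.94 (SD, n = 6), a difference of 1.01 (SE 0.51) that did not pass (limma adjusted p = 0.566). It was named after its value was seen.

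Btnl2, a butyrophilin-like gene whose product restrains T cell activation, was the member with the next largest difference. Its Flattop arrays read 6.06, 6.53, 7.52 and 8.22 in replicates 1 to 4. The Lgr5-high arrays ran from 5.16 to 6.395, with a median of 5.88. Replicates 3 and 4 stood clear above all Lgr5-high arrays, replicate 2 just above them, and replicate 1 among them. The means were 7.08 ± 0.97 (SD, n = 4) and 5.81 ± 0.50 (SD, n = 6). The difference of 1.27 (SE 0.41, 95% interval 0.37 to 2.17) had an unadjusted limma p of 0.0103 but did not pass after adjustment (adjusted p = 0.298), and 5.98% of all genes were higher at an unadjusted p under 0.05.

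The Btnl2 difference lay mostly in 1 range of titles. Titles 1 to 8 gave 0.29 and titles 38 to 46 gave 2.25, the latter range including Flattop replicates 3 and 4. The interaction of group and range was 1.97 (SE 0.545) and did not pass limma over all genes (adjusted p = 0.491). Unadjusted it was under 0.05, as it was for 7.39% of all genes. On those same Flattop arrays the IEL marker mean was higher (10.95 and 10.07, against 8.38 and 8.96 in replicates 1 and 2), and the crypt base stem cell mean was lower (7.87 and 8.15, against 8.78 and 9.12). The enterocyte mean followed neither, at 8.48 and 9.67 against 8.71 and 9.02. Their part in the Btnl2 values was not tested. Btnl1, the next gene of RefSeq beside Btnl2, differed by -0.05 within titles 1 to 8 and 0.60 within titles 38 to 46.

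The starts of these neighbouring genes are shown because Btnl2 had the next largest difference among the members and Btnl1 lies beside it. Whether the differences of the 2 genes were unequal was not tested, and their intervals overlap (0.37 to 2.17 for Btnl2 and -0.71 to 1.26 for Btnl1). Sequences are from RefSeq (GRCm38.p6, plus strand, chr17:34354572-34354871 for Btnl2 and chr17:34376882-34377181 for Btnl1), and capitals mark matches to HNF4 motifs and to a GATA motif.
Btnl2: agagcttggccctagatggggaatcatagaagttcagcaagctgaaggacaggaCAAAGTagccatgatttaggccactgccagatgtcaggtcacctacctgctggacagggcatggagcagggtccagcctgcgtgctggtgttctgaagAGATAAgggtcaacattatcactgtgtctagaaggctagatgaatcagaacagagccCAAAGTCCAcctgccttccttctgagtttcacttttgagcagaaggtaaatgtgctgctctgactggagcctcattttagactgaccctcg
Btnl1: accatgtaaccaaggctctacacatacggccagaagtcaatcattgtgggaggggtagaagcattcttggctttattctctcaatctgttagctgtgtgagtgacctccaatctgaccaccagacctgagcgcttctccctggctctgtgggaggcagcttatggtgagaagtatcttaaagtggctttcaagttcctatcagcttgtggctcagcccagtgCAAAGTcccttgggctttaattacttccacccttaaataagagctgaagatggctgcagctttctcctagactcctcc
The HNF4 site searched was CAAAGTNCA and its core CAAAGT, which every full site contains, and the GATA motif was AGATAA, each on both strands. Btnl2 holds a core match starting 196 bases before the annotated start, a GATA match at 98 bases and a full HNF4 match at 41 bases before it, and Btnl1 a core match at 28 bases before it. Of all 32851 promoters, 14.4% hold the core, 1.41% the full site and 11.2% the GATA motif. The interferon response motif, which 3.44% of promoters hold, had no match in the 7 member windows. These are matches of letters, with no binding measured.

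Btnl9, a more distant relative, was at percentile 52 of all gene means. Its mean over the 10 arrays, 5.07, lay near the median of all values (4.70), where array signal compresses differences. It read 4.90, 4.495, 5.12 and 5.02 in Flattop replicates 1 to 4 and ran from 4.84 to 5.935, with a median of 5.04, in Lgr5-high arrays. One Flattop array lay below all Lgr5-high arrays, and the others overlapped. The difference was -0.30 (SE 0.23, 95% interval -0.81 to 0.20, limma adjusted p = 0.692), and negative in both title ranges (-0.54 and -0.07). Of 15 further genes of the butyrophilin family, Skint genes included, 0 rose and 0 fell in limma, also at an unadjusted p under 0.05. Their median difference was -0.13 and their mean lay between 3.53 and 3.99 on all arrays, under the median of all values.

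The probe set shared by H2-T3 and H2-T18 was higher on average in Flattop arrays, with overlap. It read 7.196, 7.67, 7.32 and 7.18 in Flattop replicates 1 to 4. In Lgr5-high arrays it ran from 5.27 to 7.31, with a median of 6.76. The Flattop arrays lay close together, at or just above the upper end of a wide Lgr5-high range. The difference of 0.74 (SE 0.38, 95% interval -0.11 to 1.59) had an unadjusted p of 0.0807 and an adjusted p of 0.664 over all probe sets in limma. It was positive in both title ranges, 0.505 and 0.98.

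The start of H2-T3 is shown because it is the other member window with a full HNF4 match (RefSeq, GRCm38.p6, minus strand, chr17:36190102-36190401). Capitals mark, from left to right, an HNF4 core match, a CDX2 match on the opposite strand and the full HNF4 site 16 bases before the annotated start.
H2-T3: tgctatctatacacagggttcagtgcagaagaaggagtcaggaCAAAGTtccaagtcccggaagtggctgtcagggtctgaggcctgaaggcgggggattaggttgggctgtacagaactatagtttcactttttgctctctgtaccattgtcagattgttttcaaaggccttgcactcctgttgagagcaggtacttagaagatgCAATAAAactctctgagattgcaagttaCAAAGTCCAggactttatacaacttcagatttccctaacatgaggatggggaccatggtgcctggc
The known partner of this antigen, Cd8a, which forms the CD8 alpha homodimer, averaged 5.49 ± 0.12 (SD, n = 6) for Lgr5-high and 9.375 ± 0.789 (SD, n = 4) for Flattop and so rose by 3.89 (SE 0.29, limma adjusted p = 0.000113). It is an IEL marker as well. Of 13 other class Ib genes with a probe set of their own, 0 rose and 0 fell (1 higher at an unadjusted p under 0.05, median 0.11). Of 12 genes for class I chains and peptide loading, 0 rose and 0 fell. At an unadjusted limma p under 0.05, 2 were higher, where 5.98% of all genes were. Of the 12 differences, 11 were positive (median 0.32), where 38.5% of all genes had a positive difference. That share includes dim genes, while this list had a mean between 7.64 and 8.31 on all arrays. No share was computed for genes of like level. B2m, the light chain that H2-T3 and Cd1d1 need, was at 12.76 ± 0.24 (SD, n = 4) and 12.56 ± 0.20 (SD, n = 6). The immunoproteasome subunit Psmb9 was at 9.44 ± 0.09 and 8.135 ± 0.735 (limma adjusted p = 0.149). Both were named after their values were seen.

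Cd1d1 did not separate the groups. It read 5.15, 5.04, 6.12 and 5.39 in Flattop replicates 1 to 4 and ran from 4.90 to 5.92, with a median of 5.655, in Lgr5-high arrays. Replicate 3 was above all Lgr5-high arrays and the other Flattop arrays were within their range. The difference was -0.14 (SE 0.25, 95% interval -0.70 to 0.42, limma adjusted p = 0.874). The lower title range gave -0.31 and the upper one 0.03. Its neighbour Cd1d2 was at 3.39 ± 0.19 (SD, n = 4) and 3.56 ± 0.29 (SD, n = 6). Of 4 lipid loading genes measured, 1 rose and 0 fell, where 0.902% of all genes rose and 0.0135% fell. It was Mttp, the transfer protein that lipidates both CD1d and apolipoprotein B, which rose by 1.48 (SE 0.23, limma adjusted p = 0.0119). Its means were 7.24 ± 0.42 (SD, n = 6) for Lgr5-high and 8.72 ± 0.30 (SD, n = 4) for Flattop. On removal of Flattop replicate 2 this call ended (adjusted p = 0.0521). Mttp is also an enterocyte lipid absorption gene, and the enterocyte list was higher by a median of 1.91 on the same arrays.

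On average Il15 lay below the median of all values, at percentile 23.1 of all gene means. It read 3.85, 4.41, 3.83 and 4.05 in Flattop replicates 1 to 4 and ran from 3.495 to 4.89, with a median of 3.83, in Lgr5-high arrays. Every Flattop value was inside the Lgr5-high range. The difference was 0.09 (SE 0.25, 95% interval -0.47 to 0.65, limma adjusted p = 0.918). With both means under 4.70 the arrays may not register a change in this transcript. Its presenting chain Il15ra was at 5.60 ± 0.23 (SD, n = 4) and 5.47 ± 0.32 (SD, n = 6), a difference of 0.13 (SE 0.19, limma adjusted p = 0.838). Il2rb, the receptor chain by which lymphocytes receive interleukin 15, was at 7.45 ± 1.90 (SD, n = 4) and 4.36 ± 0.29 (SD, n = 6) with groups that did not overlap, and did not pass (difference 3.09, SE 0.67, limma adjusted p = 0.0729). Of the 5 receptor and signalling genes measured, 0 rose and 0 fell. At an unadjusted limma p under 0.05, 3 were higher, where 5.98% of all genes were. Il15ra and Il2rb were named after their values were seen.

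**Figure D3:**
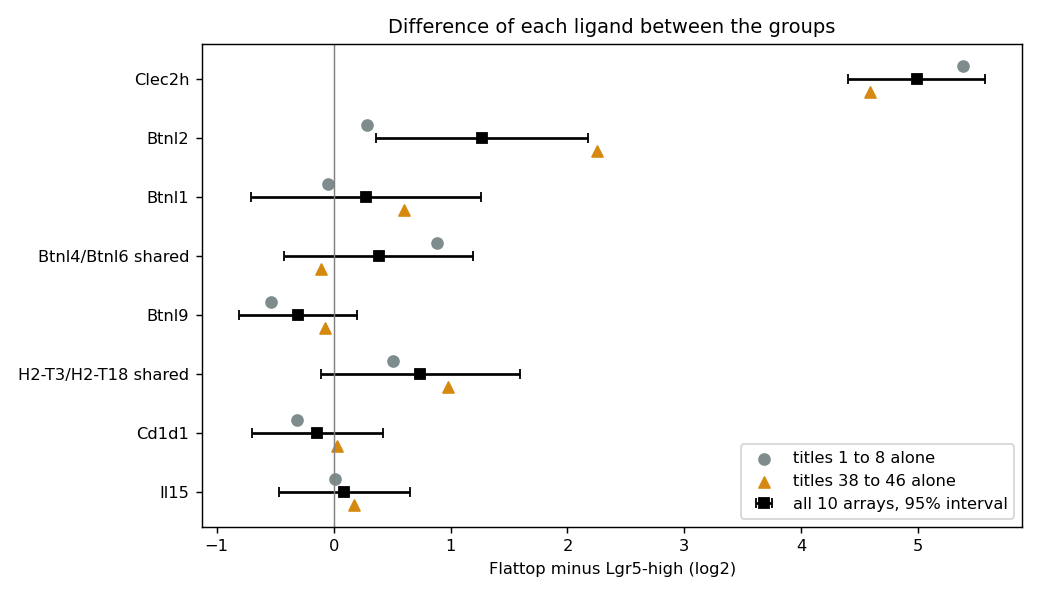
Flattop minus Lgr5-high difference on the log2 scale (x axis) for each ligand probe set. Squares with bars are the limma estimates over 10 arrays with 95% intervals, circles and triangles the differences within titles 1 to 8 and 38 to 46. Clec2h stands at 4.99, Btnl2 runs from 0.29 to 2.25 between the title ranges, and the intervals of the other 6 probe sets include 0.

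Over the 6 ligands with a probe set of their own, 1 rose and 0 fell, against 0.915% of all genes called in either direction. At an unadjusted p under 0.05, 2 were higher and 0 lower, where 5.98% of all genes were higher and 3.8% lower. The groups did not overlap for 1 of the 6, where 2.98% of all genes did not overlap. The differences were positive for 4 of the 6, with a median of 0.18 against -0.06 for all genes. Clec2h was the ligand that passed.

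**Figure D4:**
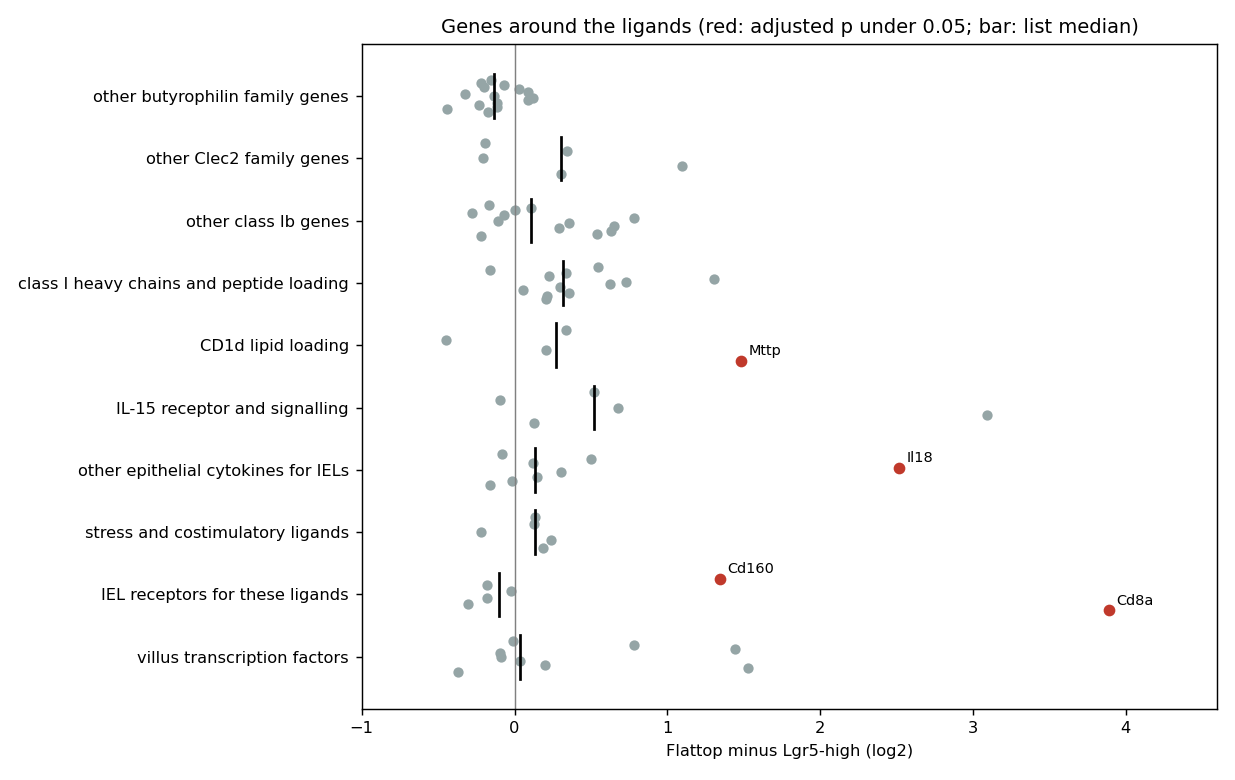
Flattop minus Lgr5-high difference on the log2 scale (x axis) for genes of 10 lists around the ligands (y axis), 1 point per gene with its own probe set. Red points passed limma at an adjusted p under 0.05 and black bars are list medians. The genes past the threshold are Mttp, Il18, Cd160 and Cd8a.

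On the lymphocyte side, 6 genes for receptors of such ligands had a probe set. Of these, 2 rose, Cd8a and Cd160, and 0 fell, where 0.902% of all genes rose and 0.0135% fell. Klrb1b, Klrb1c, Klrb1f and Klrk1 had negative differences (-0.31, -0.18, -0.02 and -0.18), and the list median was -0.098. Klrb1b was lower at an unadjusted limma p under 0.05, where 3.8% of all genes were. Of the 12 IEL markers 11 rose, and Cd8a is in both lists. Cd160, a receptor for the herpesvirus entry mediator on IELs and natural killer cells, rose by 1.34 (SE 0.26, limma adjusted p = 0.0431), with means of 5.17 ± 0.36 (SD, n = 6) for Lgr5-high and 6.51 ± 0.55 (SD, n = 4) for Flattop. This call ended on removal of any single array, apart from Flattop replicates 1 and 2, with adjusted p between 0.0588 and 0.109. Its epithelial ligand gene Tnfrsf14 was at 5.44 ± 0.375 and 5.31 ± 0.25, a difference of 0.13 (limma adjusted p = 0.839), and was named after its value was seen. The largest rises by p among IEL markers were those of the chemokine Ccl5 (6.99) and the T cell receptor component Cd3g (6.43). The beta chain Cd8b1 was at 5.63 ± 2.27 (SD, n = 4) and 4.35 ± 0.23 (SD, n = 6), and did not pass (limma adjusted p = 0.633). Of 10 B cell and myeloid markers, 1 rose and 0 fell in limma. It was the adaptor Tyrobp (3.98), which natural killer cells and some T cells also use. At an unadjusted limma p under 0.05, 2 of the 10 were higher and 1 lower, where 5.98% of all genes were higher and 3.8% lower. The groups did not overlap for 2, where 2.98% of all genes did not overlap. These were Tyrobp and the lysozyme gene Lyz2 (difference 1.04, SE 0.31, limma adjusted p = 0.236). The macrophage marker Adgre1 was the lower one (difference -0.32, SE 0.14, limma adjusted p = 0.485). The median difference of this list was -0.09, and 4 of its 10 differences were positive. Its mean level lay between 4.91 and 5.32 in Flattop and between 4.41 and 4.72 in Lgr5-high arrays, without overlap. Tyrobp had by far the largest difference in the list and weighs on that mean, and a mean without Tyrobp was not computed. Lyz2 and Adgre1 were named after their values were seen.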

How the data were processed

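The deposited log2 intensities were made by the authors with oligo 1.38.0 and its RMA method, per the submitters' processing notes. RMA subtracts background, puts the arrays on 1 scale and combines the probes of a probe set. Filters applied afterwards are not given in the sources used. The labels' protocols name the miRNeasy Micro kit for RNA and the Ovation Pico WTA System V2 for amplification. Amplification can change ratios between transcripts. No scanner files were used, so steps before the deposited values were not examined. Precision rests on the number of arrays and on the variation among them.

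Of 41345 probe sets, 23521 had 1 gene symbol, 1814 several and 16010 were not listed in the platform annotation. For each of 22180 genes the probe set with the highest mean was used. Entrez numbers matched RefSeq (GRCm38.p6) for 21994 genes, with the same symbol in each. No dim probe set was removed. Groups were compared with limma 3.58.1 (R 4.3.3) by a two-sided test of the Flattop minus Lgr5-high difference. P-values were adjusted by Benjamini-Hochberg across the 22180 genes, and 0.05 was the threshold. Shared probe sets were adjusted over all probe sets. The method was tested on simulated data. Plots used matplotlib 3.10.9.

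The members, the gene lists and the alternatives were chosen with earlier results of these data known. Named were all members, up to 4 genes per list past the threshold with the smallest p, Lgr5 and Cfap126, and the 3 genes most like each called member. Others were named after their values were seen, including Epcam, Vil1, Cd8b1, Cd1d2, Klrb1b, Klrb1c, Klrb1f and Klrk1. The lists held markers of IELs, villus enterocytes, crypt base stem cells, myeloid and B cells and epithelium, relatives and partners of the ligands, other epithelial cytokines, stress ligands and villus transcription factors. Alternatives were other scalings, a filter on dim genes, other variance models, blocks, title ranges, probe set rules, a threshold of 0.1 and each array left out.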

Additional observations from a re-analysis of the deposited data

Results flagged for a closer look

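Il15 read 4.89 on Lgr5-high replicate 1, while the other Lgr5-high arrays lay between 3.495 and 3.97. The gap to the nearest array was 0.658 of the group's range, above Dixon's critical value for a group of this size. Of 26 groups of arrays examined this was the 1 that stood out, and chance gives about 1 in 20. Without that array the Il15 difference was 0.28 (limma adjusted p = 0.543). The same array had the highest Btnl1 value of its group, 6.39.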

How the results depend on the processing

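Clec2h passed in all 21 alternatives (4.59 to 5.39, limma adjusted p 3.31e-06 to 0.0290), and the count of ligands past the threshold was 1 in all 22. Btnl2 was positive in all 21 and passed in none (0.29 to 2.25, adjusted p 0.124 to 0.682). Differences that did not pass changed sign for Btnl1 (-0.046) within titles 1 to 8, for Cfap126 (-0.438) in the same range, for Cd1d1 (0.032) and the Btnl4 and Btnl6 probe set (-0.108) within titles 38 to 46, and for Il15 (-0.033) without Flattop replicate 2. The cause was not tested. Il15 dropped out when dim genes were removed, and averaging over probe sets gave no value for the shared ones. Il15 ranged from -0.033 to 0.28 when any 1 array was left out (0.28 without Lgr5-high replicate 1).

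Of all genes, 203 passed, against 57 with the replicate block, 77 within titles 1 to 8, 85 within titles 38 to 46, 311 at a threshold of 0.1 and 123 to 215 when any 1 array was left out (123 without Flattop replicate 2, 132 without Lgr5-high replicate 4). Interaction calls numbered 2, and 0 to 38 with any 1 array left out, 38 without Flattop replicate 4. At an unadjusted limma p under 0.05 there were 1639. The labels do not say that replicate numbers pair the samples. Deviations of same-numbered arrays from their group means correlated at 0.297, -0.206, -0.010 and 0.029. Over all pairs of a Flattop and an Lgr5-high array the range was -0.31 to 0.298. Such correlations cannot show whether samples shared an animal or a day. With the replicate block Clec2h was at 5.14 (adjusted p = 0.00775), while Mttp (0.0847), Cd160 (0.0501), Tyrobp (0.0867) and Il18 (0.207) no longer passed. Within titles 1 to 8 Mttp (0.258), Cd160 (0.235) and Tyrobp (0.0867) did not pass, nor did Mttp (0.218), Cd160 (0.0700), Il18 (0.472), Sis (0.0772), Alpi (0.0795), Apoa1 (0.0664) and Apoa4 (0.119) within titles 38 to 46. Cd160 also missed it after a second quantile normalisation (0.0652) and with array weights (0.0614), and Cd160 and Il18 when all probe sets were tested (0.0911 and 0.0545).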

Other observations

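Of 8 other epithelial cytokine genes that act on IELs, 1 rose and 0 fell, where 0.902% of all genes rose and 0.0135% fell. Il18, which epithelial cells store as a precursor, rose by 2.52 (SE 0.44, limma adjusted p = 0.0232). Its means were 3.80 ± 0.26 (SD, n = 6) for Lgr5-high and 6.31 ± 1.21 (SD, n = 4) for Flattop, with the Lgr5-high level under the median of all values (4.70). This call ended on removal of any single array, apart from Flattop replicate 3 and Lgr5-high replicates 1 and 6, with adjusted p between 0.0546 and 0.0835. Ccl25, the chemokine that draws lymphocytes to the small intestine, was at 9.70 ± 0.45 and 9.58 ± 0.28, and Il7 at 4.14 ± 0.33 and 4.30 ± 0.18. Of 5 measured stress and costimulatory ligands, 0 rose and 0 fell in limma, also at an unadjusted p under 0.05 (median 0.13).

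Of 9 measured villus transcription factors, 0 rose and 0 fell. By unadjusted limma p under 0.05 there were 3 higher and 1 lower, where 5.98% of all genes were higher and 3.8% lower. Hnf4g was at 9.46 ± 0.41 (SD, n = 4) and 7.93 ± 1.02 (SD, n = 6), a difference of 1.53 (SE 0.48, limma adjusted p = 0.272), and its relative Hnf4a was at 8.59 ± 0.26 and 8.96 ± 0.22 (difference -0.37, adjusted p = 0.481). Klf4, a factor of differentiated epithelium, differed by 1.44 (SE 0.29, adjusted p = 0.0531) with groups that did not overlap. Ccl25, Il7, Hnf4g, Hnf4a and Klf4 were named after their values were seen.

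Of 10 crypt base stem cell markers, 0 rose and 0 fell in limma. At an unadjusted limma p under 0.05, 5 were lower, where 3.8% of all genes were. All 10 differences were negative, with a median of -0.61 against -0.06 for all genes. Of all genes 38.5% had a positive difference, a share not matched for level. Lgr5 is in this list, and the Lgr5-high cells were sorted on it.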
